A study of Mus musculus with 32 samples.

Results

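The 10 trophic and angiogenic factors followed here are ones that the retinal pigment epithelium (RPE) is known to make. They were measured in RNA from the RPE of *rd1* mice: *Serpinf1*, *Vegfa*, *Pdgfa*, *Fgf2*, *Hbegf*, *Ptn*, *Igf1*, *Bdnf*, *Cntf*, and *Lif*. Each was taken as the row of the count table whose Ensembl gene bears that symbol, which gave 10 of the 34453 rows, and all 10 passed the filter on low counts in every comparison. The *rd1* mouse carries a loss-of-function mutation of the rod phosphodiesterase gene *Pde6b*, loses its rods early, and is a model of retinitis pigmentosa. In each mouse, one eye had been injected with AAV-Best1-Nrf2, which carries the human Nrf2 cDNA, together with AAV-Best1-GFP ("Nrf2 eye"), and the other with AAV-Best1-GFP alone ("control eye"), so both eyes had received a virus and GFP. By the paper's methods, the Nrf2 eye received more vector in total, and its Nrf2 vector had a different capsid from the GFP vector. Effects of Nrf2 and of vector dose or capsid cannot be told apart here. The Best1 promoter drives expression in RPE cells. There were 7 mice at P20 and 9 at P40, and each eye gave 1 library, or 32 in all. Different mice were used at each age. The methods describe wild-type CD1 pairs at P40 as well, whereas the labels call every library *rd1*, and the strain was taken from the labels. The number of mice per age in the labels also differs from that in the methods, so the libraries at P40 may include CD1 pairs, and age and strain cannot then be told apart.

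The RPE lies between the photoreceptors and the choroidal capillaries and supplies both with secreted proteins. VEGF-A, from *Vegfa*, is released toward the choroid and keeps its fenestrated capillaries open, and pigment epithelium-derived factor (PEDF), from *Serpinf1*, opposes vessel growth and protects photoreceptors. Ciliary neurotrophic factor and leukemia inhibitory factor, from *Cntf* and *Lif*, belong to the interleukin-6 family, signal through gp130 and LIF receptor to STAT3, and delay photoreceptor death in many models of retinal degeneration. Nrf2 is a transcription factor that binds antioxidant response elements near its target genes.

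The libraries held between 16548332 and 50542797 counts, so a level of 3 counts, treated as the floor, stood between 0.0566 and 0.182 CPM, which are counts scaled to a common library size. The human transgene was at 3205 to 10438 CPM in 15 of the Nrf2 libraries and at 0 to 154 CPM in 15 of the control libraries. The library labelled control P20 mouse 3 had 1098 CPM and the library labelled Nrf2 P20 mouse 4 had 1082 CPM, and these libraries were also by far the closest pair among all 32, at 7.67 times the sampling noise against at least 53.5 times for every other pair. They kept their labels, and without mice 3 and 4 no member was called at P20, as with them. Calls on members and on genes of the pathway lists that changed without these mice are named beside the results. All 8 of a list of known Nrf2 targets rose with Nrf2 at both ages. Among them, *Gclm*, the regulatory subunit of glutamate-cysteine ligase, rose by a log2 fold change of 2.99 ± 0.34 (SE) at P20 (edgeR adjusted p = 0.00921, higher in 7 of 7 mice) and 3.41 ± 0.22 at P40 (adjusted p = 7.19e-06, 9 of 9). *Nqo1*, a quinone reductase, rose by 2.05 ± 0.26 (adjusted p = 0.0097) and 2.00 ± 0.19 (adjusted p = 9.97e-05). All 12 RPE markers were found in every library, at a summed 5871 to 72896 CPM. Markers listed for other cells were found too. Their sums were 1075 to 14137 CPM for 6 melanocyte, 1247 to 3474 CPM for 8 Mueller glia, and 315 to 5835 CPM for 5 blood markers. They were 178 to 1176 CPM for 7 fibroblast markers and 88.5 to 609 CPM for 10 macrophage markers. A transcript in these libraries thus need not come from the RPE. Whether RPE cells make some of these markers was not tested. In such bulk RNA, a change in the number of cells of a type and a change in RNA per cell cannot be told apart.

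The promoters of *Lif* and *Cntf* are shown because *Lif* had the largest difference between the eyes and *Cntf* shares its receptors, and those of *Fgf2* and *Pdgfa* because they hold the same short sequence as *Lif*. They are the 250 bases before a RefSeq start site in GRCm38.p6, 5′ to 3′ on the strand of the gene. *Lif* is at chr11:4257318-4257567 (+), *Cntf* at chr19:12765633-12765882 (-), *Fgf2* at chr3:37348403-37348652 (+), and the first of the promoters of *Pdgfa* at chr5:138994282-138994531 (-). Capitals mark the antioxidant response element core TGACNNNGC on either strand.
Lif: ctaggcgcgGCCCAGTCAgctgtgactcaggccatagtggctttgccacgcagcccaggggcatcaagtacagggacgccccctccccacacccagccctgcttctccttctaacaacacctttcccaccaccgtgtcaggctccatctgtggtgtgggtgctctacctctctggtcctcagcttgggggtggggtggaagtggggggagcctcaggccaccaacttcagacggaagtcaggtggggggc
Cntf: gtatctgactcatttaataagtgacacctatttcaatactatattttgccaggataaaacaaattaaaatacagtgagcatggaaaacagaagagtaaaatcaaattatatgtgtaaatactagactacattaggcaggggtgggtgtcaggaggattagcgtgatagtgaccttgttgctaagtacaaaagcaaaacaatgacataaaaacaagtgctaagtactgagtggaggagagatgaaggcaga
Fgf2: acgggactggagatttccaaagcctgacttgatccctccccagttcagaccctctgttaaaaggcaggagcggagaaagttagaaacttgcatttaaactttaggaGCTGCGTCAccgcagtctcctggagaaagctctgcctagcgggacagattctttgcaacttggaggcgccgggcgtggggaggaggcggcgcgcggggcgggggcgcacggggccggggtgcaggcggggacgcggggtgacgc
Pdgfa: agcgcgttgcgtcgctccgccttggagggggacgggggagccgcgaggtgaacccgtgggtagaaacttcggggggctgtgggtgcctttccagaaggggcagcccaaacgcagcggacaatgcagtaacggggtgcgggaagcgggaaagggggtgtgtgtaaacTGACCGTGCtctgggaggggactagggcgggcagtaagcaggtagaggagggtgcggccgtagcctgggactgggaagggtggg
The core began at -241 from the start of *Lif* and at -144 from that of *Fgf2*, both on the reverse strand, and at -84 from that of *Pdgfa*, on the strand of the gene. It was found in 3 of 17 promoters of 9 members and in 10.2% of all 32851 promoters of that length. The core of the hypoxia response element, ACGTG, was found in 4 of the 17, those of *Serpinf1*, *Bdnf* (in 2 of its 7), and *Vegfa* (in 1 of its 2), and in 16.6% of all promoters. None of these 17 promoters held both motifs, so their matches did not overlap, and a match of letters does not show that a factor binds there. *Hbegf* was left out of the promoter search.

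Per kilobase of exon, the 10 factors spanned a wide range of levels. Over all 32 libraries, the median was 34.9 CPM per kb for *Vegfa*, 26.6 for *Ptn* (pleiotrophin, a heparin-binding growth factor), 26.6 for *Pdgfa* (platelet-derived growth factor A), 22.2 for *Cntf*, and 12 for *Serpinf1*. It was 4.90 CPM per kb for *Hbegf* (heparin-binding EGF-like growth factor), 3.34 for *Igf1* (insulin-like growth factor 1), 1.14 for *Bdnf* (brain-derived neurotrophic factor), 0.515 for *Fgf2* (basic fibroblast growth factor), and 0.459 for *Lif*. The first 4 of these could not be put in a firm order, because *Vegfa* was above *Ptn* in 19 of 32 libraries, *Ptn* above *Pdgfa* in 17, and *Pdgfa* above *Cntf* in 22. Steps that nearly all libraries shared were those from *Cntf* to *Serpinf1* (29 of 32), from *Igf1* to *Bdnf* (29 of 32), and from *Bdnf* to *Fgf2* (30 of 32). At the low end the order of *Fgf2* and *Lif* followed the group: *Fgf2* was above *Lif* in 9 of 9 control eyes at P40, and *Lif* had the higher median in the Nrf2 eyes at both ages.

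**Figure D1:**
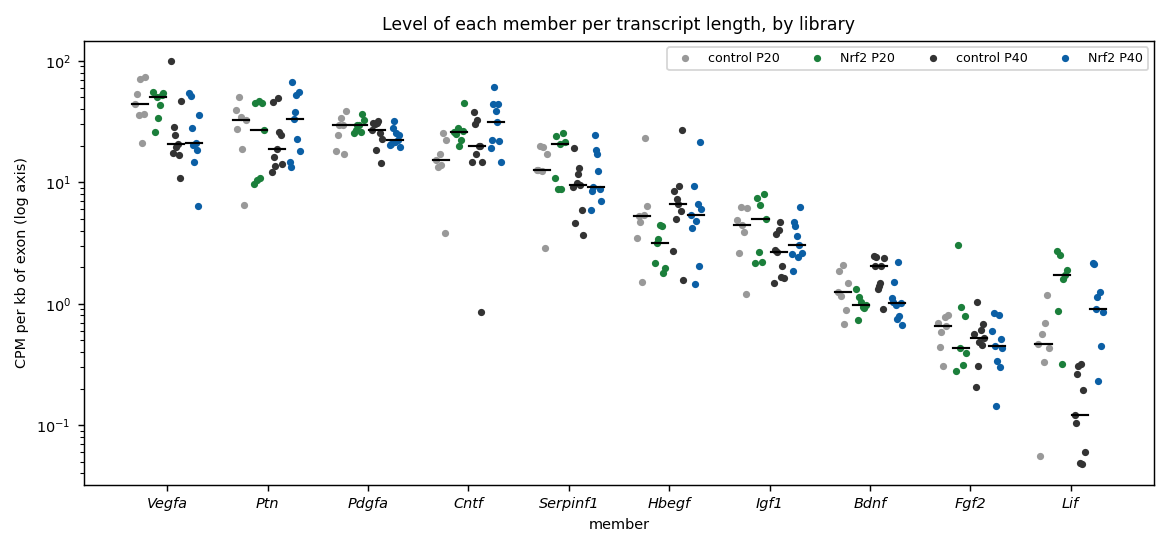
Level of each member per kilobase of exon (CPM per kb, log axis) in each library, with the 4 groups side by side and black bars at the group medians. Points of *Vegfa*, *Ptn*, *Pdgfa*, and *Cntf* overlap near the top, *Fgf2* and *Lif* lie lowest, and the 1 library without *Lif* reads (Nrf2 eye of P40 mouse 3) is left out because 0 has no place on a log axis.

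Whether Nrf2 altered the output of these factors was asked by comparing the eyes of each mouse. None of the 10 members passed an adjusted p of 0.05 by edgeR at P20, where 3.41% of all 16303 genes tested did, and none at P40, where 4.57% of 16686 genes did. An unadjusted p under 0.05 was reached by 2 members at each age, *Lif* and *Cntf* at P20 and *Lif* and *Bdnf* at P40. DESeq2 called those 2 at P20 and those 2 at P40, and limma voom called *Lif* at both ages and *Bdnf* at P40. At each age, 5 members had a log2 fold change above 0 and 5 below it, with medians of 0.02 and 0.10 against -0.04 and -0.03 over all genes tested.

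Markers of cells other than the RPE differed between the eyes too. Of all genes tested, 3.41% passed at P20 and 4.57% at P40. Of the 7 cone markers, 2 fell with Nrf2 at P20 and 6 at P40, or 28.6% and 85.7% of the list. Of the 10 macrophage markers, none passed at P20 and 6 rose at P40, or 60%. Of the 8 markers of mural cells, which wrap vessels, 2 fell at P20 (*Rgs5* and *Kcnj8*) and 2 at P40 (*Kcnj8* and *Cspg4*). The fibroblast gene *Col3a1* rose and the rod gene *Sag* fell at P40, each 1 of 7 tested in its list. Summed levels of the macrophage markers had medians of 244 CPM in control and 163 CPM in Nrf2 eyes at P20, and of 189 and 324 CPM at P40. Their median log2 fold change was 1.15 at P20 and 1.65 at P40, so at P20 it went against the summed levels. Summed levels of the mural markers had medians of 735 and 877 CPM at P20 and 359 and 278 CPM at P40. The 8 rod markers summed to 18.1 to 354 CPM in control and 6.38 to 75.4 CPM in Nrf2 eyes at P20, and to 52.2 to 431 CPM and 6.65 to 43 CPM at P40. The part of mural cells and rods in the results was not tested. After these values had been seen, the mean log2 CPM of either list was added to the edgeR model as a covariate, with the mouse kept as a block. With the macrophage markers, 0 genes passed at P20 (1889 at an unadjusted p under 0.05) and 16 at P40 (620), and with the cone markers 0 at P20 (2891) and 26 at P40 (3231), against 556 and 762 without a covariate. No member passed in any of these 4 fits. Of the known Nrf2 targets, 0 passed at P20 with either list, and 1 of 8 at P40 with each. The markers themselves differ between the eyes, so the covariate and Nrf2 overlap in the model, and the cause of the lost calls was not tested.

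**Figure D2:**
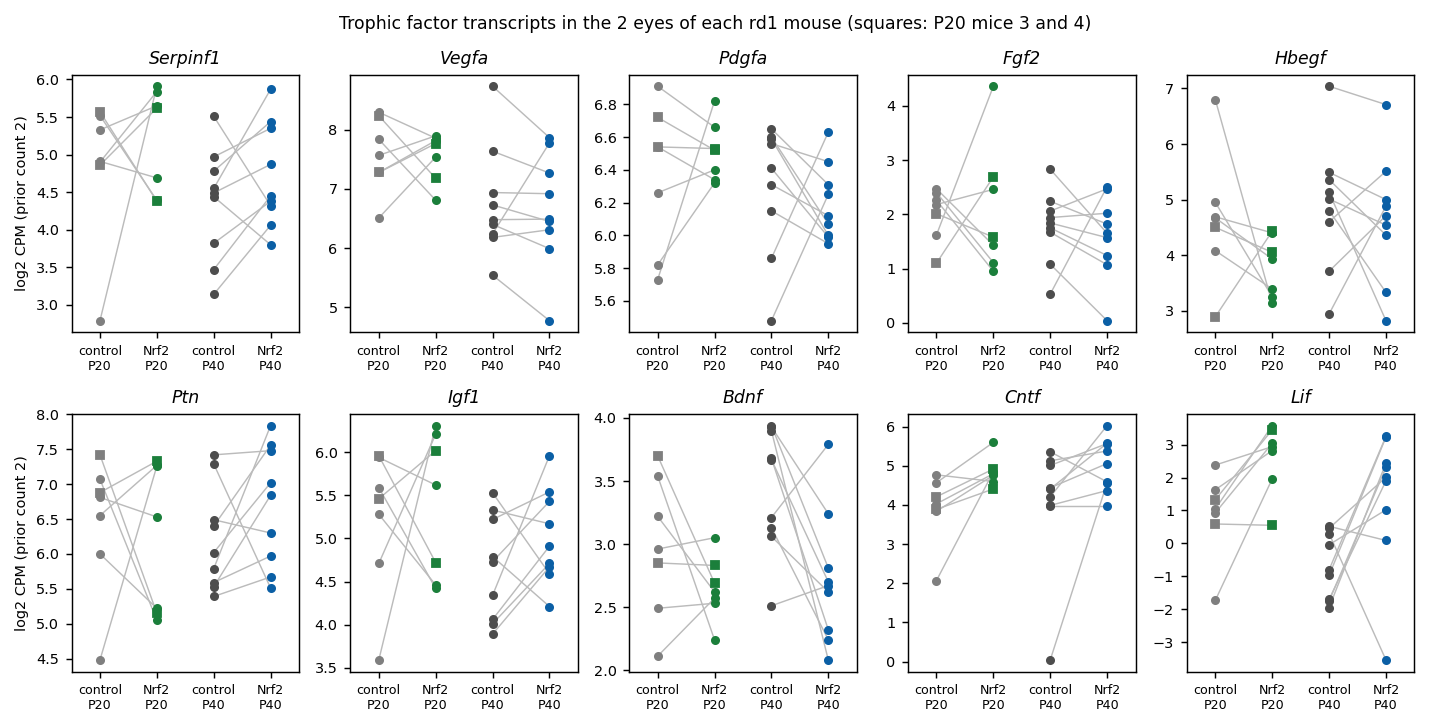
Transcript level of each member (log2 CPM, prior count of 2) in the control and Nrf2 eye of each mouse, joined by lines, at P20 and P40, with squares for P20 mice 3 and 4. *Lif* is above the control eye in 6 of 7 mice at P20 and 7 of 9 at P40, while the lines of *Serpinf1*, *Ptn*, and *Igf1* cross.

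**Figure D3:**
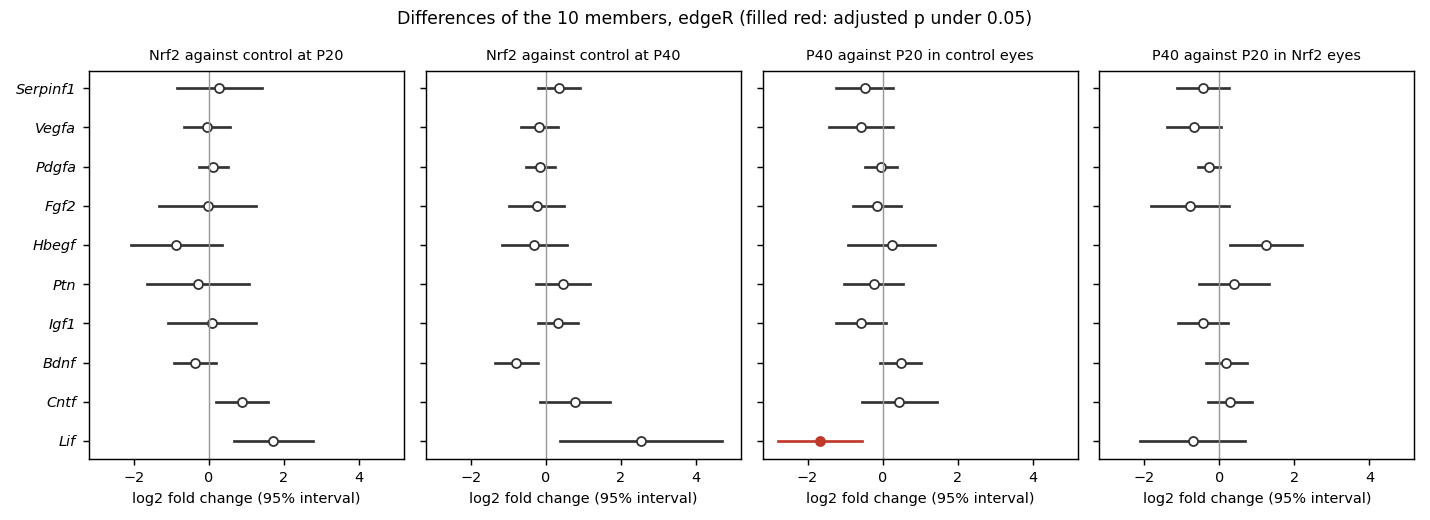
Log2 fold change of each member with its 95% interval by edgeR in the comparisons of the eyes at P20 and P40 and of the ages in control and in Nrf2 eyes. The one filled red point is *Lif*, lower at P40 than at P20 in control eyes, with adjusted p = 0.044.

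*Lif* had the largest difference between the eyes at both ages. At P20, it ranged from 0.241 to 5.12 CPM in control eyes, with a median of 2.03, and from 1.39 to 11.9 CPM in Nrf2 eyes, with a median of 7.58. At P40, it ranged from 0.207 to 1.39 CPM in control eyes, with a median of 0.527, and from 0 to 9.50 CPM in Nrf2 eyes, with a median of 3.96. The groups overlapped at both ages, but 5 of 7 Nrf2 eyes at P20 and 7 of 9 at P40 were above every control eye of their age. The exceptions at P40 were mouse 3, whose Nrf2 eye had 0 counts against 29 in its control eye, and mouse 6, whose Nrf2 eye had 0.999 CPM against 1.39. At P20, the exceptions were mouse 2, whose Nrf2 eye had 3.78 CPM against 0.241 in its control eye, and mouse 4, with 1.39 CPM in the library labelled Nrf2 and 1.44 in the other.

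The log2 fold change of *Lif* was 1.72 ± 0.46 at P20 (edgeR adjusted p = 0.0907, 95% interval 0.67 to 2.77, higher in 6 of 7 mice) and 2.53 ± 0.99 at P40 (adjusted p = 0.263, interval 0.37 to 4.69, 7 of 9). It was called at P20 without mouse 4 (1.98, adjusted p = 0.0272), and at P40 without mouse 3 (3.06, adjusted p = 0.0303) or without the mouse as a block (2.61, adjusted p = 0.0283). Without P20 mice 3 and 4 it was 1.97 ± 0.53 (adjusted p = 0.0848). DESeq2 gave adjusted p = 0.00161 at P20 and 0.00436 at P40, and limma voom gave 0.0038 and 0.0351. With the macrophage markers as a covariate, the log2 fold change was 2.00 at P20 and 1.93 at P40 (adjusted p = 0.24 and 1). With the cone markers it was 2.33 at P20 but 0.03 at P40 (adjusted p = 0.242 and 0.995), so the difference at P40 was not seen in that fit. *Lif* was low in all groups, with as few as 5 counts in a control library, so its level in single libraries carries much counting error.

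The Nrf2 eye had more *Cntf* in 6 of 7 mice at P20 and 8 of 9 at P40. Control eyes ranged from 4.12 to 27.3 CPM at P20, with a median of 16.3, and Nrf2 eyes from 21.2 to 48.3 CPM, with a median of 27.9. At P40, control eyes ranged from 0.910 to 40.9 CPM, with a median of 21.2, and Nrf2 eyes from 15.7 to 65.2 CPM, with a median of 33.3. At each age, 4 Nrf2 eyes were above all control eyes, and the 2 lowest values, those of the control eyes of P20 mouse 6 and P40 mouse 8, were far below the rest. The log2 fold change was 0.88 ± 0.30 at P20 (edgeR adjusted p = 0.176) and 0.78 ± 0.43 at P40 (adjusted p = 0.522). DESeq2 called it at P20 (adjusted p = 0.0367). It was 0.98 ± 0.40 without mice 3 and 4 (adjusted p = 0.218). At P20, the log2 fold change was 0.53 with the macrophage markers as a covariate and 1.47 with the cone markers. At P40, it was 0.06 with the macrophage markers as a covariate and 1.90 with the cone markers (adjusted p = 1 and 0.32). *Cntf* lies within *Zfp91* on the same strand, and estimates for them may share reads. *Zfp91* itself had log2 fold changes of -0.14 ± 0.09 at P20 and -0.01 ± 0.16 at P40 (adjusted p = 0.432 and 0.995).

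*Bdnf*, the ligand of TrkB, was lower in the Nrf2 eye in 7 of 9 mice at P40. Control eyes at P40 ranged from 5.58 to 15.3 CPM, with a median of 12.7, and Nrf2 eyes from 4.19 to 13.8 CPM, with a median of 6.30. The Nrf2 eye of mouse 6, at 13.8 CPM, was the only one above the median of the control eyes. The log2 fold change was -0.78 ± 0.27 (edgeR adjusted p = 0.169, interval -1.36 to -0.20), and it was called without mouse 6 (-0.95, adjusted p = 0.04), by DESeq2 (-0.79, adjusted p = 0.0436), and by limma voom (-1.07, adjusted p = 0.00679). With the cone markers as a covariate its sign turned, to 0.72 (adjusted p = 0.39). At P20, control eyes ranged from 4.27 to 12.9 CPM and Nrf2 eyes from 4.6 to 8.23, and the log2 fold change was -0.37 ± 0.25 (adjusted p = 0.471), and -0.32 ± 0.33 without mice 3 and 4. Beside this, 5 of the 12 RPE markers fell with Nrf2 at P40 (*Rpe65*, *Lrat*, *Rlbp1*, *Rgr*, and *Rdh5*) and 1 at P20 (*Rpe65*). These were 41.7% and 8.33% of the list, where 4.57% and 3.41% of all genes passed. The part of these markers in the values of *Bdnf* was not tested.

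The angiogenic pair, *Vegfa* and *Serpinf1*, had no difference between the eyes past the threshold. At P20, *Vegfa* ranged from 90.9 to 316 CPM in control eyes, with a median of 189, and from 112 to 239 in Nrf2 eyes, with a median of 218. At P40, it ranged from 46.4 to 429 CPM in control eyes and from 27.2 to 234 in Nrf2 eyes, with nearly equal medians of 89.2 and 90.0. The control eye of P40 mouse 1, at 429 CPM, was more than any other library. The log2 fold changes were -0.05 ± 0.27 at P20 (95% interval -0.66 to 0.56) and -0.17 ± 0.22 at P40 (interval -0.66 to 0.32), with edgeR adjusted p of 0.947 and 0.873. The first was 0.04 ± 0.30 without mice 3 and 4.

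*Serpinf1* ranged from 6.82 to 47.3 CPM in control eyes at P20 and from 20.8 to 60.1 in Nrf2 eyes, with medians of 30 and 49.2. At P40, it ranged from 8.74 to 45.6 CPM and from 13.9 to 58.4 CPM, with medians of 22.3 and 21.8. The log2 fold changes were 0.28 ± 0.50 (interval -0.85 to 1.41) and 0.35 ± 0.26 (interval -0.20 to 0.91), with edgeR adjusted p of 0.808 and 0.686. At P20, the sign of *Serpinf1* turned in limma voom (-0.39) and with the macrophage markers as a covariate (-0.47), whereas it was 0.99 with the cone markers and 0.47 ± 0.58 without mice 3 and 4. The log2 ratio of *Vegfa* to *Serpinf1* reads was above 0 in every library, from 0.39 to 4.51. Reads were not scaled here to exon length, which is 4285 bases for *Vegfa* and 2359 for *Serpinf1*. Per kb, *Serpinf1* was the higher in the control eye of P40 mouse 2 (19.3 against 17.6 CPM per kb). It was also the higher in the Nrf2 eyes of P40 mice 4, 5, and 8 (24.7 against 20.4, 18.4 against 14.8, and 8.82 against 6.35). Between the eyes, the Nrf2 eye had the higher ratio in 3 of 7 mice at P20 and in 1 of 9 at P40, with mean differences of -0.39 ± 1.88 (SD, n = 7) and -0.49 ± 1.31 (SD, n = 9). The exception at P40, at 2.73, moved against the others, and the spread was larger than the mean at both ages.

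**Figure D4:**
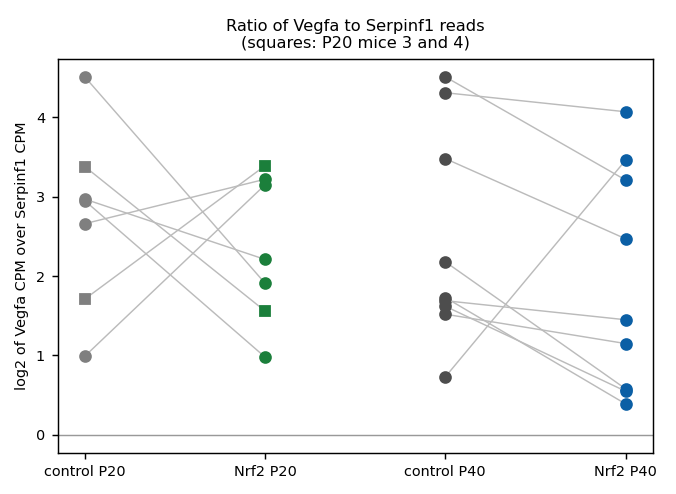
Log2 ratio of *Vegfa* CPM to *Serpinf1* CPM in the eyes of each mouse, joined by lines, at P20 and P40, with squares for P20 mice 3 and 4. All libraries lie above 0, for CPM not scaled to exon length, and at P40 the ratio is higher in the Nrf2 eye in 1 of 9 mice.

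The remaining growth factors also did not pass the threshold. *Pdgfa*, a mitogen for glia and mesenchymal cells, had the narrowest interval, with log2 fold changes of 0.12 ± 0.17 at P20 (-0.27 to 0.50) and -0.14 ± 0.18 at P40 (-0.53 to 0.26). Its 14 values at P20 lay between 53.1 and 120 CPM and its 18 at P40 between 44.5 and 100 CPM. *Igf1* had log2 fold changes of 0.08 ± 0.51 and 0.33 ± 0.25, and *Ptn* of -0.28 ± 0.60 and 0.46 ± 0.33. In the Nrf2 eyes at P20, *Serpinf1*, *Igf1*, and *Ptn* were each lowest in the same mice, 1, 3, and 5. At P20, *Igf1* was at -0.57 in limma voom, at -0.56 with the macrophage markers as a covariate, and at 1.27 with the cone markers, and *Ptn* at -1.18 and 0.66 with these covariates. At P40, *Igf1* was at -0.22 and -0.17 with the covariates, and *Ptn* at 1.02 and 0.62. *Pdgfa*, *Igf1*, and *Ptn* were at 0.19 ± 0.22, 0.26 ± 0.62, and -0.05 ± 0.66 at P20 without mice 3 and 4. For *Ptn* the low eyes were at 33.2, 35.6, and 37.2 CPM, against 92.4 to 161 CPM in the other 4.

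*Hbegf*, an EGF receptor ligand that is shed from the cell surface, was lower in the Nrf2 eye in 6 of 7 mice at P20, where control eyes ranged from 7.36 to 112 CPM (median 25.4) and Nrf2 eyes from 8.70 to 21.5 CPM (median 15.2). The exception was mouse 4, at 21.5 CPM in the library labelled Nrf2 and 7.36 in the other. The log2 fold change was -0.87 ± 0.53 (edgeR adjusted p = 0.422), and -1.42 ± 0.48 without mice 3 and 4 (adjusted p = 0.147). In fits without 1 mouse, it ranged from -1.25 to -0.44 (adjusted p from 0.107 to 0.675). The highest value, 112 CPM in the control eye of mouse 6, was far above the next, 30.9 CPM. That library also had the lowest *Serpinf1*, *Cntf*, *Igf1*, *Ptn*, and *Pdgfa* of the control eyes at P20. At P40, the log2 fold change of *Hbegf* was -0.30 ± 0.40 (edgeR adjusted p = 0.872). With the macrophage and the cone markers as a covariate, the values of *Hbegf* were -0.45 and -1.79 at P20 (adjusted p = 0.797 and 0.347) and -0.50 and -1.55 at P40 (adjusted p = 1 and 0.35). *Fgf2*, a survival factor for photoreceptors, had log2 fold changes of -0.03 ± 0.57 and -0.24 ± 0.34. Its sign at P20 turned without the block (0.48) and with the cone markers as a covariate (1.11), and it was -0.21 with the macrophage markers and -0.31 ± 0.68 without mice 3 and 4. Its highest value, 20.5 CPM in the Nrf2 eye of P20 mouse 2, stood apart from the 1.88 to 6.39 CPM of the other Nrf2 eyes at P20. *Fgf2* overlaps *Nudt6* on the opposite strand, and because the counting is not stated to use strand, reads of both cannot be told apart. *Nudt6* had log2 fold changes of -0.06 ± 0.30 and 0.32 ± 0.24.

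Whether the effect of Nrf2 changed with age was tested as an interaction. None of the 10 members passed it, where 0.00557% of 17959 genes did (1 gene), and no member reached an unadjusted p under 0.05 against 429 of all genes. DESeq2 and limma voom called no member either. The largest differences were 0.81 ± 1.16 for *Lif* (95% interval -1.63 to 3.24) and 0.75 ± 0.67 for *Ptn* (-0.67 to 2.17), both higher for P40, and the intervals reach several fold in either direction.

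How the factors moved with age in degenerating eyes was asked in the control eyes. Only *Lif* passed the threshold, 1 of 10 members where 14.8% of 16832 genes did. It fell from a median of 2.03 CPM at P20 to 0.527 CPM at P40, and 6 of the 7 control eyes at P20 were above all 9 at P40. The log2 fold change was -1.67 ± 0.53 (edgeR adjusted p = 0.044), a level at P40 of 0.314 times that at P20. The call was lost in 11 of 16 fits that left out 1 library, those without control P20 mouse 1, 3, 4, 5, 6, or 7 or control P40 mouse 2, 3, 5, 7, or 9, with log2 fold changes of -1.87 to -1.34 over all 16 and adjusted p up to 0.0892. It was also lost without P20 mice 3 and 4 (-1.77 ± 0.60, adjusted p = 0.101), without a filter on low counts (adjusted p = 0.065), with the replicate number as a block (0.117), and in limma voom (-1.25, adjusted p = 0.178). The titles of the libraries begin with one letter at P20 and another at P40, the study used more than one sequencing run, and age and any such batch cannot be told apart.

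*Vegfa* had log2 fold changes below 0 with age in both kinds of eye, without passing the threshold. In control eyes, its log2 fold change was -0.58 ± 0.40 (edgeR adjusted p = 0.316), and 5 of 9 eyes at P40 were below all eyes at P20. Without the control eye of P40 mouse 1, the highest of all, it was -1.02 and passed the threshold (adjusted p = 0.0236), and limma voom called it too (-0.92, adjusted p = 0.0427). In Nrf2 eyes, it was -0.69 ± 0.34 (edgeR adjusted p = 0.21) and -1.08 by limma voom (adjusted p = 0.00973). *Bdnf* had a log2 fold change of 0.48 ± 0.26 in control eyes (adjusted p = 0.206) and of 0.18 ± 0.26 in Nrf2 eyes (adjusted p = 0.684). *Serpinf1* and *Igf1* had values of -0.48 ± 0.36 and -0.58 ± 0.32 in control eyes, and of -0.43 ± 0.32 and -0.43 ± 0.32 in Nrf2 eyes, none past the threshold. Of the 7 fibroblast markers, 3 collagen genes fell with age in control eyes (*Col1a1*, *Col1a2*, and *Col3a1*). This was 42.9% of the list, where 14.8% of all genes passed. The part of these collagen genes in the values of the members was not tested.

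In Nrf2 eyes, no member passed the threshold between the ages, where 0.502% of 16745 genes did, and limma voom called *Vegfa* and *Pdgfa*. *Hbegf* had the largest difference. It ranged from 8.70 to 21.5 CPM at P20 and from 6.99 to 104 CPM at P40, and 6 of 9 eyes at P40 were above all 7 at P20. Its log2 fold change was 1.23 ± 0.45 (edgeR adjusted p = 0.122, 95% interval 0.27 to 2.19), against 0.24 ± 0.55 in control eyes. *Lif* was at -0.71 ± 0.67 (adjusted p = 0.517). *Pdgfa* was at -0.28 ± 0.14, with 7 of 9 eyes at P40 below all eyes at P20 (adjusted p = 0.204 by edgeR and 0.0409 by limma voom).

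Genes of the same pathways were taken from lists of related ligands, receptors, binding proteins, and targets, and each call between the eyes that is named below for these lists was lost in both covariate fits, except that of *Bnip3* at P40 with the cone markers. None of these log2 fold changes turned in sign with a covariate, and their values are given below as those with the macrophage and then with the cone markers. Of the 30 related ligands tested, 4 rose and none fell at P20 (median log2 fold change 0.02, all genes -0.04), and 3 rose and 2 fell at P40 (median -0.18, all genes -0.03). These were 13.3% and 16.7% of the list, where 3.41% and 4.57% of all genes passed. The lists were chosen with earlier results of these data known, so such shares, here and for the lists below, are descriptions. *Angpt1*, which steadies vessels through Tie2, rose by 2.27 ± 0.26 at P20 and 2.25 ± 0.23 at P40 (edgeR adjusted p = 0.00921 and 0.000146). It ranged from 1.58 to 11.3 CPM in control eyes and from 12.7 to 32.5 CPM in Nrf2 eyes at P20, and from 1.21 to 5.15 CPM and from 12 to 24.5 CPM at P40, with no overlap at either age. *Igf2* rose by 1.56 ± 0.21 at P20 (adjusted p = 0.0108). *Fgf1* rose by 1.70 ± 0.32 and 1.58 ± 0.23 (adjusted p = 0.0275 and 0.00145), and *Angptl4* fell by 1.72 on the log2 scale at P40 (adjusted p = 0.000411). Of the calls on these 4 ligands, only that of *Fgf1* at P20 was lost in fits without 1 mouse, in those without mouse 1, 2, 3, 5, 6, or 7 (adjusted p up to 0.108). *Pdgfc* rose by 0.63 ± 0.14 at P20 (adjusted p = 0.0461), a call lost without mouse 1, 2, 3, 5, 6, or 7 (adjusted p up to 0.153), and *Fgf7*, a growth factor for epithelia, fell by 1.42 on the log2 scale at P40 (adjusted p = 0.017), a call lost without mouse 4 or 5 (adjusted p up to 0.0538). *Igf2* also rose at P40, by 1.01. With the covariates, the log2 fold changes at P20 were 1.97 and 2.54 for *Angpt1*, 1.76 and 2.28 for *Fgf1*, 1.53 and 1.24 for *Igf2*, and 0.66 and 0.67 for *Pdgfc*. At P40 they were 1.66 and 2.55 for *Angpt1*, 0.71 and 1.67 for *Fgf1*, -1.78 and -1.56 for *Angptl4*, -1.94 and -2.55 for *Fgf7*, and 1.14 and 1.00 for *Igf2*. When P20 mice 3 and 4 were left out, *Angpt1*, *Fgf1*, and *Igf2* still passed at P20 (2.52, 2.04, and 1.80, adjusted p = 0.00723, 0.00943, and 0.00759), and *Pdgfc* did not (0.67, adjusted p = 0.0694).

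The relatives and receptors of *Lif* and *Cntf* were set beside them after their values had been seen. *Clcf1*, a further cytokine of the family, had log2 fold changes of 0.52 ± 0.27 at P20 and 0.49 ± 0.33 at P40 (edgeR adjusted p = 0.353 and 0.659). *Il11* was at 0.22 ± 0.43 and -0.57 ± 0.33 (adjusted p = 0.826 and 0.571, lower in 7 of 9 mice at P40), and *Ctf1*, which encodes cardiotrophin 1, at -0.03 ± 0.19 and -0.18 ± 0.19 (adjusted p = 0.953 and 0.82). *Il6* and *Osm* were too low to be tested. Among the receptors, *Cntfr*, the binding subunit for CNTF, rose at P40 by 1.08 ± 0.27 (adjusted p = 0.0407, higher in 9 of 9 mice) and was at 0.67 ± 0.42 at P20 (adjusted p = 0.433). Its call at P40 was lost without mouse 1, 2, 4, 5, 7, or 8 (adjusted p up to 0.114), and its values with the covariates were 1.42 and 1.45. *Lifr* was at -0.43 ± 0.33 and -0.17 ± 0.27, and *Il6st*, which encodes gp130, at 0.25 ± 0.16 and 0.48 ± 0.31, none past the threshold. Of the 11 STAT3 targets and regulators tested, none passed at P20 and 1 rose at P40 (medians -0.07 and -0.02, all genes -0.04 and -0.03). The 1 gene was 9.09% of the list, where 4.57% of all genes passed at P40. It was *Socs1*, a feedback inhibitor of JAK kinases, at 1.08 ± 0.24 (adjusted p = 0.0237), and this call was lost without mouse 1, 4, 5, 7, or 9 (adjusted p up to 0.0818). With the covariates it was at 1.40 and 0.48. *Socs3* was above the control eye in 7 of 7 Nrf2 eyes at P20, at 1.02 ± 0.30 (adjusted p = 0.117), and in 6 of 9 at P40, at 1.01 ± 0.53 (adjusted p = 0.482). *Osmr*, the oncostatin M receptor, had the smallest p of the list at P20, at 0.91 ± 0.24 (adjusted p = 0.0874), and 0.95 without mice 3 and 4 (adjusted p = 0.138). At P40, it was at -0.23 ± 0.23 (adjusted p = 0.808), lower in 7 of 9 mice.

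**Figure D5:**
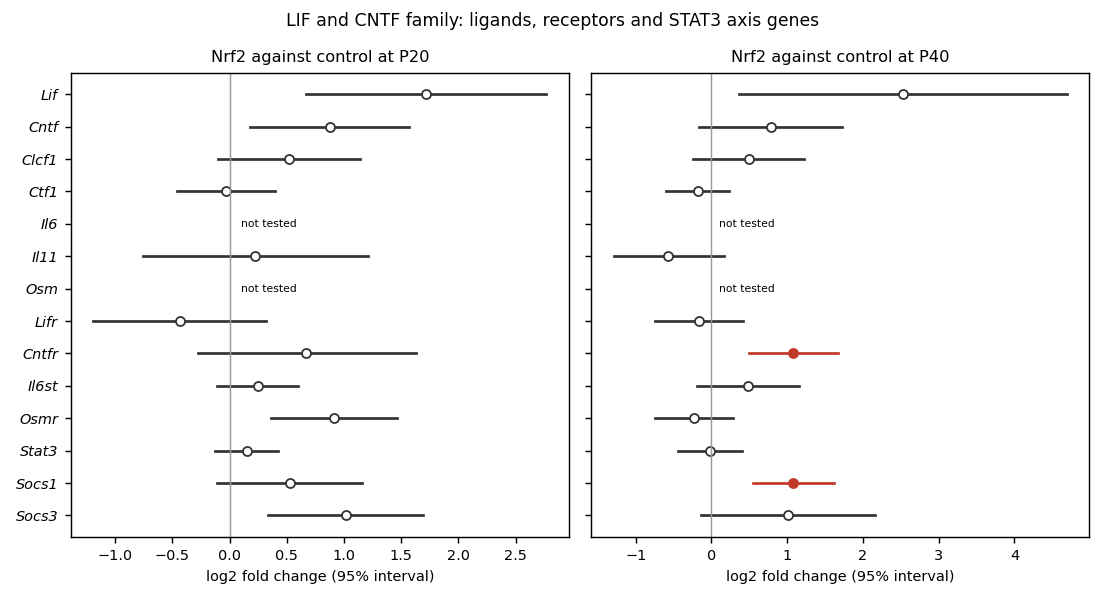
Log2 fold change between Nrf2 and control eyes with its 95% interval by edgeR for *Lif*, *Cntf*, other ligands of the interleukin-6 family, their receptors, and genes of the STAT3 axis, at P20 and P40. *Cntfr* and *Socs1* are filled red (adjusted p under 0.05) at P40, and *Lif* and *Cntf* are open at both.

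Among the 32 receptors and coreceptors, none passed the threshold at P20 (median -0.20) and 4 rose at P40 (median -0.12), or 12.5% of the list against 4.57% of all genes. Beside *Cntfr*, these were the VEGF coreceptors *Nrp2* (1.06 ± 0.23, edgeR adjusted p = 0.0196) and *Nrp1* (0.85 ± 0.16, adjusted p = 0.00706), and *Ntrk2*, which encodes TrkB, the receptor of BDNF (0.61 ± 0.15, adjusted p = 0.0402). The receptor with the smallest p at P20 was *Nrp2*, at 0.84 ± 0.19 (adjusted p = 0.0565), and it passed without mice 3 and 4 (1.03, adjusted p = 0.048). The calls of *Nrp2* at P40 without mouse 4 or 7, and of *Ntrk2* without mouse 3, 4, 5, 7, 8, or 9, were lost (adjusted p up to 0.0662 and 0.117). With the covariates, the values at P40 were 1.06 and 0.43 for *Nrp2*, 0.53 and 0.45 for *Nrp1*, and 0.44 and 0.79 for *Ntrk2*.

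Of 19 binding proteins, sheddases, and inhibitors tested, 1 rose at P20 and 3 rose and 1 fell at P40 (medians 0.02 and 0.19). These were 5.26% and 21.1% of the list, against 3.41% and 4.57% of all genes. *Igfbp3*, a carrier of IGF1 and IGF2, rose at both ages, by 2.49 ± 0.37 (edgeR adjusted p = 0.0134) and 3.19 ± 0.34 (adjusted p = 0.000171). In control eyes it ranged from 13.1 to 34.3 CPM at P20 and from 2.70 to 24.3 CPM at P40, below all Nrf2 eyes of the same age, which ranged from 34.9 to 236 and from 29.6 to 210 CPM. *Igfbp2* rose by 0.91 ± 0.17 at P40 (adjusted p = 0.00944). *Fgfrl1*, an FGF receptor without a kinase domain, rose by 0.91 ± 0.22 and *Timp3*, an inhibitor of VEGF signaling and of metalloproteinases, fell by 0.88 on the log2 scale (adjusted p = 0.0317 and 0.0356). These last 2 calls each held in only 2 of 9 fits without 1 mouse, for *Fgfrl1* without mouse 1 or 6 and for *Timp3* without mouse 6 or 8 (adjusted p up to 0.1 and 0.109). *Igfbp3* had values of 2.20 and 2.01 with the covariates at P20 and of 3.31 and 1.29 at P40, and 2.80 at P20 without mice 3 and 4 (adjusted p = 0.0207). At P40, the covariates gave 1.01 and 1.07 for *Igfbp2*, 0.70 and 0.38 for *Fgfrl1*, and -1.37 and -1.26 for *Timp3*.

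Of 17 hypoxia response genes, to which *Vegfa* belongs by its regulation, 1 rose and 1 fell at P20 and 2 rose at P40 (medians -0.06 and -0.10), or 11.8% of the list at each age against 3.41% and 4.57% of all genes. *Adm*, which encodes the vasoactive peptide adrenomedullin, rose by 4.50 ± 0.68 at P20 and 4.74 ± 0.39 at P40 (edgeR adjusted p = 0.0136 and 3.09e-05), from medians of 1.26 and 1.99 CPM to 40.3 and 54.5 CPM. *Bnip3*, a mitophagy receptor, rose by 1.13 ± 0.20 at P40 (adjusted p = 0.00678), and *Ndrg1* fell by 0.91 on the log2 scale at P20 (adjusted p = 0.0428). The call of *Adm* at P20 was lost without mouse 1 or 5 (adjusted p up to 0.053), and that of *Ndrg1* without mouse 1, 2, 3, 5, or 7 (up to 0.134). With the covariates, *Adm* was at 4.01 and 3.20 at P20 and at 5.41 and 3.78 at P40, *Ndrg1* at -1.13 and -0.70 at P20, and *Bnip3* at 1.28 and 2.24 at P40. At P20 without mice 3 and 4, *Adm* was at 5.19 (adjusted p = 0.0121), and the call of *Ndrg1* was lost (-1.01, adjusted p = 0.0612). Of 17 ERK feedback targets, which growth factor receptors induce, none rose, 1 fell at P20, and 2 fell at P40, or 5.88% and 11.8% of the list (medians -0.20 and -0.30). *Egr1* fell by 1.36 at P20 and 1.26 at P40 on the log2 scale (adjusted p = 0.0349 and 0.0225), and *Dusp6*, an ERK phosphatase, by 0.89 at P40 (adjusted p = 0.0249). Their calls were lost for *Egr1* at P20 without mouse 1, 2, 3, 5, 6, or 7 and at P40 without mouse 1, 3, 4, or 7, and for *Dusp6* without mouse 1, 2, 3, 4, 7, or 9 (adjusted p up to 0.115). *Egr1* was at -1.37 and -1.43 with the covariates at P20 and at -1.48 and -0.42 at P40, and *Dusp6* at -1.39 and -0.68. The call of *Egr1* at P20 was also lost without mice 3 and 4 (-1.44, adjusted p = 0.0576). Genes of the lists that passed at P20 in the fit without these mice but not in the one with them were *Nrp2*, *Fgfrl1*, and *P4ha1*, which were higher, and *Angptl4*, *Ereg*, *Erbb3*, *Egfr*, *Flt1*, *Fos*, and *Dusp5*, which were lower, with adjusted p from 0.0215 for *Dusp5* to 0.049 for *Fos*.

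Between the ages in control eyes, 14.8% of all genes passed the threshold. The share was 26.3% for the binding proteins and 6.45% to 12.5% for the other 5 lists, below that of all genes. Of the ligands, *Igf2* rose by 0.85 ± 0.25 and *Manf* by 0.87 ± 0.26 (2 of 31 tested). Of the receptors, *Cd9*, a tetraspanin that binds HB-EGF, rose by 0.72 ± 0.20, and *Erbb3*, *Pdgfra*, and *Gpc1* fell by 1.64, 1.26, and 1.18 on the log2 scale (4 of 32, median -0.49 against -0.00 over all genes). *Pdgfra* is the receptor of PDGF-A. Of the binding proteins and inhibitors, *Igfbp6* rose by 1.39 ± 0.24, and *Col18a1*, *Thbs2*, and *Sparc* fell by 1.40, 1.24, and 0.88, as did *Adam10* (5 of 19, median -0.36). *Egln1*, an oxygen sensor, rose by 1.28 ± 0.28 and *Arnt* fell by 0.62 (2 of 17), *Dusp5* and *Spred2* fell by 1.55 and 0.85 (2 of 17), and *Cebpd* rose by 0.96 ± 0.22 (1 of 11). Their edgeR adjusted p lay between 0.0066 for *Igfbp6* and 0.0496 for *Adam10*. In the 16 fits without 1 library, *Pdgfra*, *Igfbp6*, *Egln1*, and *Cebpd* passed in all 16, *Spred2* in 14 (lost without control P20 mouse 1 or 2), and *Sparc* in 12 (lost without control P20 mouse 1, 3, 5, or 7). The other named genes passed in 4 to 9, with adjusted p up to 0.0956, and each of the P20 control libraries and those of P40 mice 2, 3, 5, 6, 7, and 9 ended at least 1 of their calls. When P20 mice 3 and 4 were left out, *Igfbp6* (1.40, adjusted p = 0.04), *Egln1* (1.46, adjusted p = 0.0421), and *Dusp5* (-1.87, adjusted p = 0.0408) still passed. The calls of *Igf2*, *Manf*, *Cd9*, *Erbb3*, *Pdgfra*, *Gpc1*, *Col18a1*, *Thbs2*, *Sparc*, *Arnt*, *Spred2*, *Cebpd*, and *Adam10* were lost, with adjusted p from 0.0594 for *Spred2* to 0.127 for *Adam10*. In Nrf2 eyes, 2 of all these genes passed between the ages, *Igfbp6* at 1.47 ± 0.29 (adjusted p = 0.0331) and *Egln1* at 1.33 ± 0.24 (adjusted p = 0.0214). No gene of the lists passed the interaction test. *Egln1* in Nrf2 eyes was lost without Nrf2 P20 mouse 1, 2, 4, 6, or 7 (adjusted p up to 0.0696), and *Igfbp6* passed only without Nrf2 P20 mouse 1 or Nrf2 P40 mouse 1, 2, or 9 (otherwise up to 0.105). Both calls in Nrf2 eyes were lost without P20 mice 3 and 4, with *Igfbp6* at 1.39 and *Egln1* at 1.46 (adjusted p = 0.177 and 0.0624).

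Within the groups, several members varied together. Across the 32 libraries, and with each group's mean taken out, Pearson's r of log2 CPM was 0.79 for *Igf1* and *Ptn*, 0.75 for *Cntf* and *Pdgfa*, 0.70 for *Serpinf1* and *Ptn*, and 0.63 for *Serpinf1* and *Igf1*. The libraries share dissection, amplification, and depth, and these values are descriptions. *Serpinf1* varied with the 7 fibroblast markers (r = 0.82). The 2 genes most like it among 11800 were *Dcn*, which encodes decorin of the connective tissue matrix (0.90), and the chemokine gene *Cxcl12* (0.89). *Dcn* is itself among the 7 markers, so its r and that of the markers are not independent. *Bdnf* and *Vegfa* varied instead with the 12 RPE markers (r = 0.75 and 0.60), against -0.24 for *Serpinf1*. *Bdnf* also varied with the Mueller glia and cone markers (r = 0.52 and 0.46). The genes most like *Vegfa* were *Pdpn* and *Sox10* (0.96 for both). *Sox10* is among the 6 melanocyte markers, whose mean varied with *Vegfa* at r = 0.25. The genes most like *Bdnf* were *Jakmip2* (0.81) and *Slc25a14* (0.80), and those most like *Cntf* were *Nt5c3b* (0.92) and *Bcap29* (0.91). For *Hbegf* they were *Cenps* and *Pak1* (0.90 for both), for *Pdgfa* *Lmo1* (0.86) and *Rsu1* (0.82), for *Ptn* *Tfpi* (0.82) and *Dcn* (0.80), and for *Igf1* *Gxylt2* (0.80) and *Ptn* (0.79). The lowest were those for *Fgf2*, *Gnaq* (0.79) and *Cep128* (0.76), and for *Lif*, *Pfkfb4* (0.76) and *Pnpla8* (0.74).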

How the data were processed

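RNA of the RPE from 16 mice labelled *rd1* (32 eyes) was sequenced after amplification. The authors deposited 1 table of estimated counts per Ensembl gene, already whole numbers as deposited, with 34453 rows and the human transgene as a row of its own, and all its library columns were used. The methods name STAR with featureCounts and, in parallel, Salmon (0.9.1 per the submitters' processing notes) with tximport, on mm10, and which of both made the table is not given in the sources used here. They were taken as rounded Salmon estimates. Libraries held 16548332 to 50542797 counts, and counts of amplified reads carry more than counting error.

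Counts were tested by the quasi-likelihood test of edgeR 4.0.16 (R 4.3.3) with its filter on low counts (minimum 10), TMM scaling, and Benjamini-Hochberg adjustment over all genes tested, at a threshold of 0.05. The mouse was a block in the comparisons of the eyes, as the labels and methods pair the eyes. Eyes of 1 mouse correlated at a mean of 0.0208 at P20 and 0.1 at P40, and 3 pairs at each age were over 0.1. Ages were compared without a block. Log2 CPM used a prior count of 2, and intervals are at 95%. The floor was 3 counts, and floors cover counting error only.

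Alternatives were DESeq2 1.42.0, limma 3.58.1 voom with quality weights, RLE scaling, no filter, at least 10 counts in every library, the block removed or added, P20 mice 3 and 4 left out, each library or mouse left out, and, chosen after seeing the data, macrophage or cone markers as a covariate. The steps were tested on simulated data with a fixed dispersion and no differences between mice. That test checked the steps, and not their power at the spread of these data. Members and lists were chosen with earlier results of these data known. Named were all members and, of each list, up to 4 genes that passed with the largest change, or the gene of smallest p. Other genes with values were chosen after these were seen. One ligand of the lists is not reported here. Levels per kb used exon lengths of GENCODE M21. Labels give 7 *rd1* pairs at P20 and 9 at P40. The methods give 6 *rd1* pairs at P20 and, at P40, 4 *rd1* and 5 CD1 pairs. Libraries at P40 may thus include wild-type mice, and age and strain cannot then be told apart.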

Additional observations from a re-analysis of the deposited data

Results flagged for a closer look

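In 40 groups of 7 or 9 libraries (each member in each group), 6 values stood apart by Dixon's test on unlogged CPM. All 6 were the highest of their group. Its rate of about 1 in 20 by chance holds for normally distributed values, which was not tested here. *Vegfa* was at 429 CPM in the control eye of P40 mouse 1, with 199 CPM next below. *Fgf2* was at 20.5 CPM in the Nrf2 eye of P20 mouse 2, with 6.39 CPM next. *Cntf* was at 48.3 CPM in the Nrf2 eye of P20 mouse 7, with 30.2 CPM next. *Hbegf* was at 112 CPM in the control eye of P20 mouse 6, with 30.9 CPM next, at 131 CPM in the control eye of P40 mouse 8, with 44.8 CPM next, and at 104 CPM in the Nrf2 eye of that mouse, with 45.4 CPM next.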

How the results depend on the processing

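edgeR called 556 genes at P20 and 762 at P40. Between the ages it called 2483 in the control group and 84 in the Nrf2 group. The interaction of Nrf2 and age gave 1. In the same order, DESeq2 called 1951, 1380, 4362, 1762, and 12, and limma voom called 2605, 1327, 3747, and 2213 in the first 4. Without a filter, the counts were 348 at P20 and 914 and 31 between the ages in control and Nrf2 eyes. Removing the replicate block gave 1093 at P20, and adding it by number between the ages gave 191 and 3. Without P20 mice 3 and 4 they were 158 and 20 between the ages, and 759 against 556 for Nrf2 against control at P20. With macrophage or cone markers as a covariate, chosen after seeing the data, they were 0 and 0 at P20 and 16 and 26 at P40. The cause was not tested. Leaving out 1 mouse or library gave 111 to 1999 at P20, 521 to 997 at P40, 473 to 4273 and 21 to 190 between the ages, and 1 to 1 for the interaction. Members called were 0 to 1, 0 to 1, 0 to 2, 0 to 0, and 0 to 0 in those fits. They were 2 by DESeq2 at each age, 1 and 2 by limma voom at P20 and P40 and 2 in Nrf2 eyes between the ages, 1 without the replicate block at P40, and, against 1 in control eyes, 0 without a filter, with 10 counts in every library (where *Lif* is not tested), with the replicate block, and without P20 mice 3 and 4. No other call on a member changed with the block.

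Genes of the lists called at either age were 6 ligands, 4 receptors, 4 binding proteins, 3 hypoxia genes, 2 ERK targets, 1 STAT3 target, and 8 Nrf2 targets. With the macrophage covariate these were 0, 0, 0, 0, 0, 0, and 1, and with the cone covariate 0, 0, 0, 1, 0, 0, and 1. Receptors were 2 without a filter and 7 without P20 mice 3 and 4, and ERK targets 4 without those mice. Hypoxia genes, ERK targets, and STAT3 targets were 5, 5, and 4 by DESeq2 and 6, 6, and 4 by limma voom, and STAT3 targets 3 without the replicate block.

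Signs of log2 fold changes that turned were all of members that edgeR did not call. In limma voom these were *Serpinf1* (-0.39), *Vegfa* (0.26), and *Igf1* (-0.57) at P20, *Bdnf* in Nrf2 eyes between the ages (-0.24), and *Fgf2* (0.30) and *Cntf* (0.04) in the interaction. Without P20 mice 3 and 4 they were *Vegfa* at P20 (0.04), *Pdgfa* (0.04) and *Hbegf* (-0.07) in control eyes between the ages, and *Serpinf1* (-0.15) and *Fgf2* (0.02) in the interaction. Without the replicate block it was *Fgf2* at P20 (0.48), and with it *Pdgfa* in control eyes (0.07). With the macrophage covariate they were *Serpinf1* (-0.47), *Vegfa* (0.11), and *Igf1* (-0.56) at P20 and *Igf1* (-0.22) at P40, and with the cone covariate *Fgf2* (1.11) and *Ptn* (0.66) at P20 and *Bdnf* (0.72), *Igf1* (-0.17), and *Pdgfa* (0.16) at P40. Leaving out 1 mouse or library turned signs in ranges of -0.45 to 0.23 for *Fgf2*, -0.29 to 0.35 for *Igf1*, -0.02 to 0.19 for *Pdgfa*, -0.70 to 0.08 for *Ptn*, -0.10 to 0.56 for *Serpinf1*, and -0.21 to 0.13 for *Vegfa* at P20, of -0.14 to 0.06 for *Pdgfa* and -0.25 to 0.92 for *Hbegf* in control eyes and -0.01 to 0.26 for *Bdnf* in Nrf2 eyes between the ages, and of -0.44 to 0.19 for *Cntf*, -0.47 to 0.21 for *Fgf2*, -0.18 to 0.48 for *Serpinf1*, and -0.30 to 0.07 for *Vegfa* in the interaction.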
